A study of Mus musculus with 4 samples.

Results

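The Smad family and the Smurf ubiquitin ligases were examined in mouse aorta, through every probe set of the array that is paired with exactly 1 of 10 gene symbols: Smad1, Smad2, Smad3, Smad4, Smad5, Smad6, Smad7, Smad9, Smurf1 and Smurf2. This gave 23 probe sets of 45101 in the table, and the 10 genes are among 18193 that have a probe set of their own. The study set aortas of mice with a knockout of Smad4 confined to smooth muscle cells, labelled Smad4-KO, against those of wild-type littermates, labelled WT, all taken at 6 weeks of age with no treatment in the labels. There were 2 arrays per genotype, numbered 1 and 2 in the labels, and each took 400 ng of RNA extracted from 3 to 5 vessels combined. The labels do not name the promoter that drove the deletion or the part of Smad4 that was removed. By the stated design other cell types of the vessel wall keep the gene, which was not measured here.

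Smad proteins carry signals of the TGF-beta family from receptors at the cell surface to the nucleus. The receptor-regulated Smads are phosphorylated by the receptors: Smad1, Smad5 and Smad9 by those of BMPs, Smad2 and Smad3 by those of TGF-beta and activins. They bind Smad4, the common partner, and act with it on target genes. Smad6 and Smad7 are inhibitors made in response to the same signals, Smad6 mainly restraining BMP signalling and Smad7 both branches, and Smurf1 and Smurf2 mark Smads and receptors for destruction.

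In the Smad4-KO aortas, Smad6 fell 4.08-fold, and of the 9 member genes that could be tested only Smad6 passed. Smad4 itself was 1.32-fold lower and did not pass. The 4 receptor-regulated Smads tested had log2 differences from -0.23 to 0.58, and 0 of them passed in limma (0 at an unadjusted p under 0.05). On their brightest probe sets, Smad4, Smad5, Smad7 and Smurf2 were lower on both Smad4-KO arrays and Smad2 was higher, all without passing. Of all probe sets tested, 20.1% were lower on both Smad4-KO arrays than on both WT arrays. The test was that of limma, which was run on log2 signals across all genes, with each gene read from its probe set of highest mean and the dimmest 25% of genes dropped. An adjusted p (Benjamini-Hochberg) under 0.05 counted as passing. Values after ± are standard errors of a difference between 2 and 2 arrays from that fit, and signals are on the deposited linear scale.

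Smad9 lay under the filter. Of the other 9 genes, 1 was called lower and 0 higher in limma, and 1 had an unadjusted p under 0.05. Over all 13645 genes tested, 6.31% were called, and 1.39% were called lower. When probe sets were tested one by one, 20 of the 23 passed the signal filter and 0 of these were called in limma (1 at an unadjusted p under 0.05, that of Smad6), where 0.782% of 26209 probe sets were called. The genotypes did not overlap for 9 of the 20 probe sets, 8 of them lower in Smad4-KO. Among all probe sets tested, 42.2% did not overlap and 20.1% were apart with Smad4-KO lower. The median log2 difference of the 20 probe sets was -0.35, that of all 26209 was -0.03.

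**Figure D1:**
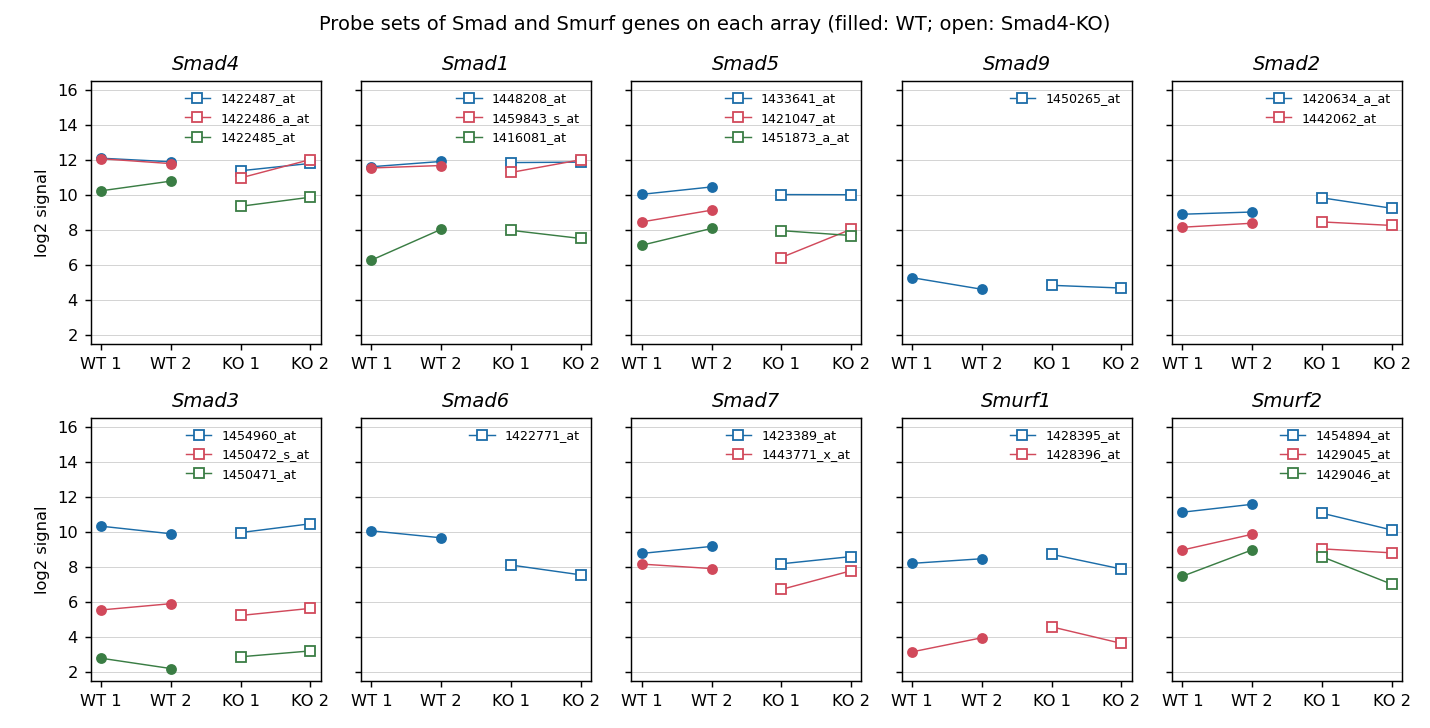
Log2 signal (y axis) of each of the 23 probe sets on the 4 arrays (x axis), in a panel per gene. Filled circles are WT and open squares Smad4-KO, lines join the replicates of a genotype, and colours mark the probe sets. The Smad6 probe set is the one whose genotypes lie farthest apart relative to its replicates, while several genes have probe sets that sit at different heights and move differently.

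The arrays also differed in measures other than genotype, and these touch the values below. For Dap, a control spiked in before labelling, the 3' signal exceeded the 5' signal by ratios of 10.02 (WT replicate 1) and 14.1 (Smad4-KO replicate 2), but of 2.96 (WT replicate 2) and 3.62 (Smad4-KO replicate 1). Xist, the RNA of the inactive X chromosome, read 15192 (WT) and 6223 (Smad4-KO) for replicates 1 but 90.0 and 135 for replicates 2. Each of these splits runs across the genotypes, so differences are given below within pairs of arrays too. Replicates correlated across genes at 0.950 in WT and 0.898 in Smad4-KO.

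Smad4 was read first, as the check of the knockout. Its brightest probe set, 1422487_at, gave 4394 and 3819 in WT, against 2676 and 3580 in Smad4-KO. Both of the latter were lower, replicate 1 clearly and replicate 2 slightly, and the log2 difference of -0.40 ± 0.32 did not pass (adjusted p = 0.626, limma). Its 95% interval ran from -1.21 to 0.40. At this standard error a log2 difference of 1.61, or 3.05-fold, would have been needed to pass. The probe set 1422486_a_at, a type that recognises several transcripts of a gene, gave 4306 and 3550 in WT, against 2018 and 4166 in Smad4-KO. There the genotypes overlapped, with the highest Smad4-KO value inside the WT range.

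The third probe set of Smad4, 1422485_at, gave 1213 and 1778 in WT, against 658 and 942 in Smad4-KO. This is the Smad4 probe set with the widest gap, at -0.90 ± 0.40 on the log2 scale, and it missed the threshold as well (adjusted p = 0.432 in limma's fit of probe sets). Its differences in the 4 pairs of arrays were -0.88, -0.92, -0.37 and -1.43, all negative. For 1422487_at they were -0.72, -0.09, -0.30 and -0.51, and for 1422486_a_at they ran from -1.09 to 0.23. The position of each probe set in the transcript is not in the files used here, so it cannot be said which of them lies in the removed part.

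Smad6, the inhibitor of BMP signalling, had 1 probe set, 1422771_at. It gave 1063 and 807 in WT, against 275 and 187 in Smad4-KO. The genotypes were far apart: the higher Smad4-KO array lay below the lower WT array by 1.55 on the log2 scale, while WT replicates differed by 0.40 and Smad4-KO replicates by 0.56. The log2 difference was -2.03 ± 0.36 (95% interval -2.92 to -1.14; adjusted p = 0.0361, limma). It ranked 153 from the lowest of the 13645 genes tested, and a difference of 1.78 would have been needed to pass. In aortic RNA, fewer cells of a type and less RNA per cell cannot be told apart.

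The fall of Smad6 was present in every pair of arrays. With arrays paired by number, the log2 differences were -1.95 (replicates 1) and -2.11 (replicates 2). With arrays paired by their labelling ratios, they were -2.51 (WT replicate 1 with Smad4-KO replicate 2) and -1.55 (WT replicate 2 with Smad4-KO replicate 1). The call was less steady than the direction. It ended without WT replicate 1 (adjusted p = 0.16), without WT replicate 2 (adjusted p = 0.137) and without Smad4-KO replicate 2 (adjusted p = 0.0778), each of which leaves 1 array in a genotype. It also ended when genes of low signal were kept (adjusted p = 0.119, limma), when a gene's probe sets were averaged (adjusted p = 0.0532) and when the arrays were blocked by these same labelling pairs (adjusted p = 0.0931), a choice added after seeing the data. Smad6 has only 1 probe set, so averaging left its difference at -2.03 and changed the values of other genes only. A threshold of 0.10 could not end the call, because it reads the same fit with a looser limit. Over the 16 alternatives the adjusted p lay between 0.0132 and 0.16, and the call held in 10.

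**Figure D2:**
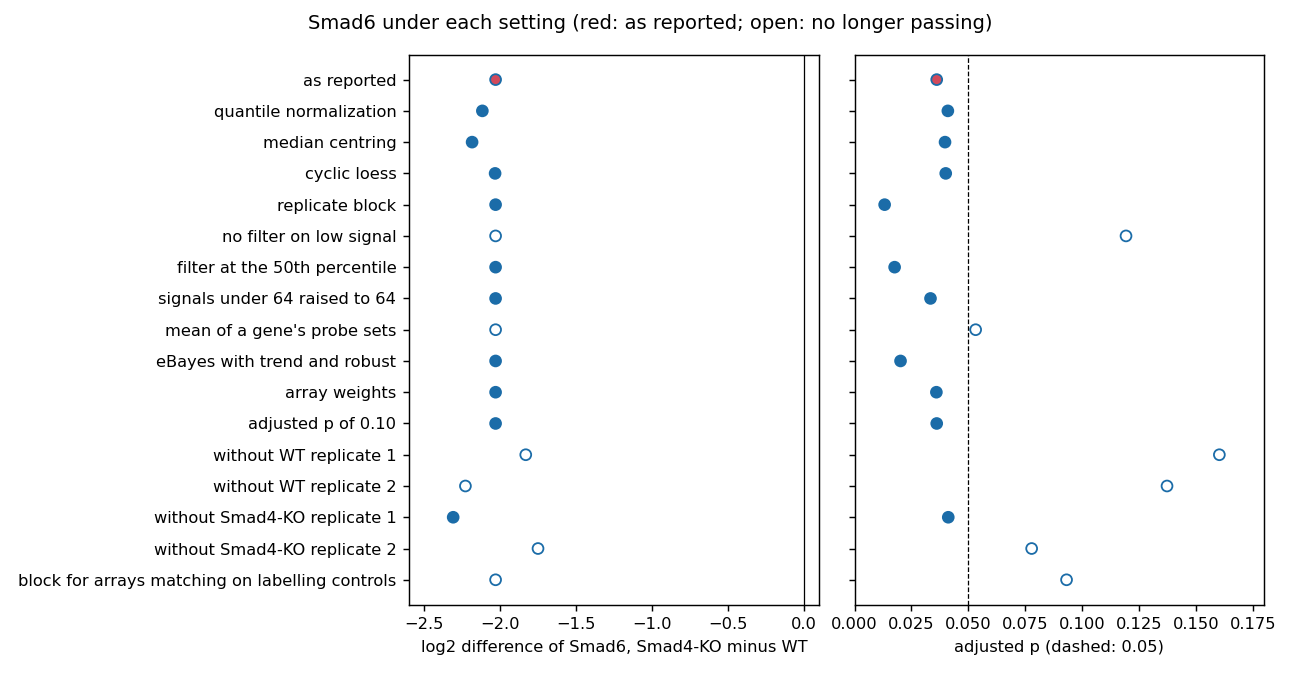
The log2 difference of Smad6 (left) and its adjusted p in limma (right) under each processing choice. Red is the value as reported, and open points no longer pass. The difference stays between -2.31 and -1.75 throughout, while the adjusted p crosses the dashed threshold in 6 of 16 alternatives.

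The promoter of Smad6 is shown because it is the member whose transcript fell and because it holds a sequence that Smad proteins are known to bind. The run covers positions -250 to 4 counted from the RefSeq transcript start (there is no position 0), at chr9:64022056-64022309 on the minus strand of GRCm38.p6, and the capitals mark the motif letters found.
Smad6 promoter: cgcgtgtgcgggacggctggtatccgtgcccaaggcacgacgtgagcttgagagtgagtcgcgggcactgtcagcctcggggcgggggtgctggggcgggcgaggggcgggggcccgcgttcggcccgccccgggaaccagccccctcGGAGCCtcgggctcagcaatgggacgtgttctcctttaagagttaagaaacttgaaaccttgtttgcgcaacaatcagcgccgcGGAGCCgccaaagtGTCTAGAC

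On both strands, 4 motifs were searched: GTCTAGAC, the palindrome to which Smad3 and Smad4 bind, GGCGCC and GGAGCC, GC-rich letters known from BMP-responsive genes, and CAGACA, a common Smad box with its flank. None of the Smad6 matches overlaps another. GTCTAGAC lies across the transcript start of Smad6, from -4 to 4. It was found in 70 of the 32851 promoters of the table, or 0.213%, and in no other member with a promoter there. No promoter was at hand for Smad2, Smad4 or Smad7, so these were not searched. Whether Smad6 differs from Smad7, the other inhibitory Smad, in this motif cannot be said here. GGAGCC occurs at -102 to -97 and at -18 to -13 of Smad6. It was also found, on one strand or the other, in the promoters of Smad5, Smad9, Smurf1 and Smurf2, and 30.8% of all promoters hold it. A match describes the letters, not a bound site.

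Promoters were at hand for 7 of the 10 genes, in 9 entries. GGCGCC, which 11.9% of promoters hold, was found in those of Smad5, Smad9 and Smurf2, and CAGACA, which 21.0% hold, in those of Smurf1 and Smurf2. The entries of Smad1 and Smad3 held none of the 4 motifs. The GGCGCC windows of Smad9 and Smurf2, whose transcripts did not pass or could not be tested, are printed for comparison with Smad6. They lie at chr3:54755519-54755548 on the plus strand, and at chr11:106920932-106920961 and chr11:106920845-106920874 on the minus strand, all of GRCm38.p6, and the capitals mark GGCGCC.
Smad9 window: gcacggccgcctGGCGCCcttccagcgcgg
Smurf2 distal window: tgccatcgagccGGCGCCgccgggcggtgt
Smurf2 proximal window: aggccttcctctGGCGCCccaggcgcagga

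Smad7, the inhibitor of both branches, had 2 probe sets. The brighter, 1423389_at, gave 435 and 574 in WT, against 289 and 384 in Smad4-KO. The genotypes did not overlap, but the gap between the nearest arrays was smaller than that between replicates, and the log2 difference of -0.59 ± 0.34 did not pass (adjusted p = 0.456, limma; 95% interval -1.43 to 0.26). The other, 1443771_x_at, of a type whose probes can match further transcripts, gave 285 and 239 in WT, against 105 and 219 in Smad4-KO. It was also lower on both Smad4-KO arrays (-0.79 ± 0.47, adjusted p = 0.603 in limma's fit of probe sets), mostly through replicate 1.

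The difference of Smad6 was more negative than that of Smad7 (the gap was -1.44 on the log2 scale). Against the other 7 genes tested the gap ran from -2.61 (Smad2) to -1.27 (Smurf2). For each of the 8 genes, the log2 ratio of Smad6 to it was lower on both Smad4-KO arrays than on both WT arrays. An exact permutation test with 2 against 2 arrays cannot give a two-sided p below 0.333, which is the value all 8 comparisons had, so the difference between members was not shown by a test.

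**Figure D3:**
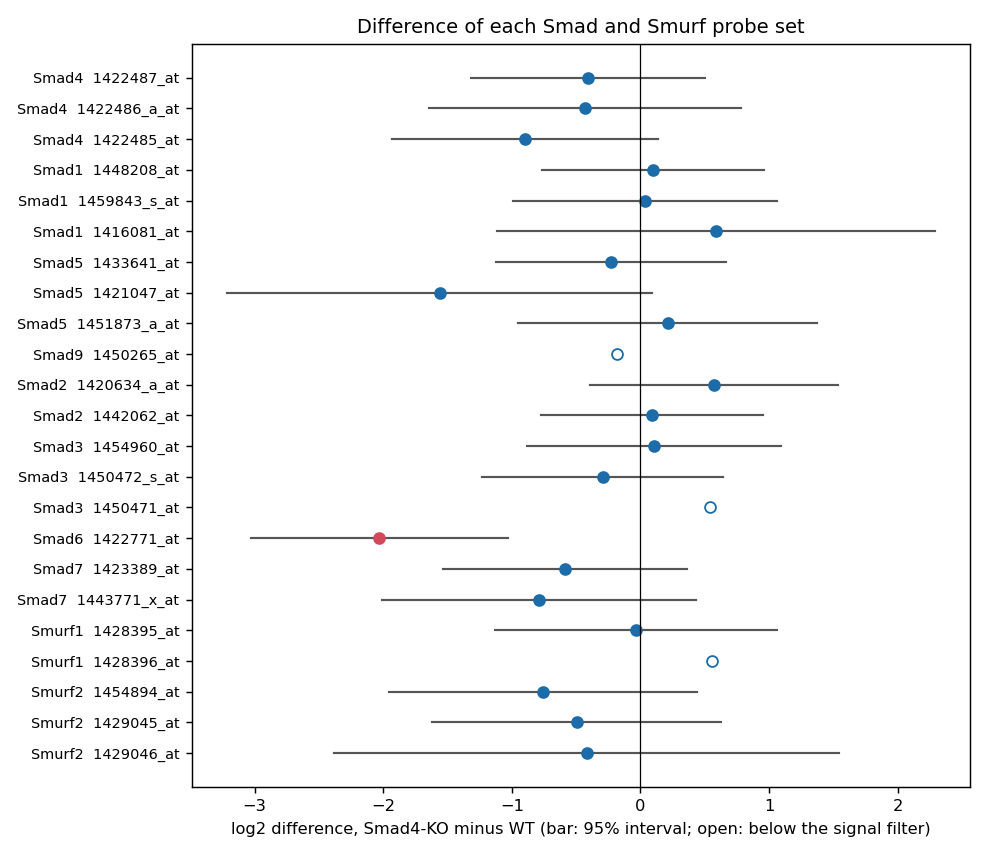
Log2 difference between Smad4-KO and WT (x axis) for each probe set (y axis), with its 95% interval from limma's fit of probe sets. Open points were below the signal filter and have no interval. The interval of Smad6 (red) runs from -3.03 to -1.03 and excludes 0, and those of the other 19 probe sets tested include it.

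Among the Smads of the BMP branch, Smad1 was read by 3 probe sets. The brightest, 1448208_at, gave 3137 and 3867 in WT, against 3696 and 3764 in Smad4-KO. The latter both lay inside the WT range, and the log2 difference was 0.10 ± 0.30 (adjusted p = 0.924, limma; 95% interval -0.66 to 0.86). The interval leaves room for a change of a size that would not have been called, as a difference of 1.52 was needed. The other probe sets overlapped as well: 1459843_s_at had 2989 and 3291 against 2502 and 4129, and 1416081_at had 78.4 and 265 against 254 and 184.

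The probe sets of Smad5 did not move together. The brightest, 1433641_at, gave 1055 and 1412 in WT, against 1044 and 1038 in Smad4-KO, differing by -0.23 ± 0.32 on the log2 scale (adjusted p = 0.809, limma). The Smad4-KO arrays were nearly equal and just below the lower WT array. The probe set 1421047_at gave 355 and 564 in WT, against 86.8 and 265 in Smad4-KO. It had the most negative difference of any member after Smad6 (-1.56 ± 0.64, adjusted p = 0.387 in limma's fit of probe sets), but its Smad4-KO replicates differed by 1.61 on the log2 scale, more than the genotypes did. The remaining one, 1451873_a_at, gave 141 and 274 against 251 and 207, so that the genotypes overlapped.

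Smad9, the remaining Smad of the BMP branch, gave 39.2 and 24.8 in WT, against 29.0 and 26.0 in Smad4-KO on its only probe set, 1450265_at. Its mean lay below the filter for probe sets, a signal of 38.2, so it was not tested. The genotypes overlapped.

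In the TGF-beta branch, Smad2 had the most positive difference of the 9 genes tested. Its probe set 1420634_a_at gave 480 and 525 in WT, against 919 and 609 in Smad4-KO. Both of the latter were higher, replicate 1 much more so than replicate 2, and the log2 difference of 0.58 ± 0.34 did not pass (adjusted p = 0.476, limma; 95% interval -0.28 to 1.43). The dimmer 1442062_at gave 287 and 337 in WT, against 355 and 309 in Smad4-KO. Here the genotypes overlapped, with a difference of 0.09.

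Smad3 gave 1277 and 947 in WT, against 993 and 1404 in Smad4-KO on 1454960_at. The genotypes overlapped, and the log2 difference was 0.10 ± 0.35 (adjusted p = 0.933, limma; 95% interval -0.78 to 0.98). The probe set 1450472_s_at gave 46.7 and 59.8 against 37.5 and 49.7, and 1450471_at lay at 4.61 to 9.25 on all arrays and was not tested. With each array centred on its median, the median over all genes shifted to -0.16, and Smad1 (-0.06) and Smad3 (-0.05) turned negative. Neither passed under any setting.

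Smurf1, a ligase that targets the BMP-branch Smads, gave 294 and 353 in WT, against 421 and 235 in Smad4-KO on 1428395_at. The Smad4-KO arrays lay on either side of the WT arrays, and the log2 difference was -0.03 ± 0.39 (adjusted p = 0.984, limma). Its other probe set, 1428396_at, gave between 8.91 and 24.0 and was below the filter.

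Smurf2, which acts on Smad2 and on receptors bound by Smad7, gave 2219 and 3032 in WT, against 2137 and 1101 in Smad4-KO on 1454894_at. Smad4-KO replicate 1 was just below WT replicate 1, and replicate 2 was far below, so the log2 difference of -0.76 ± 0.43 (95% interval -1.84 to 0.32) did not pass (adjusted p = 0.451, limma). The same array order did not hold in the dimmer probe sets. For 1429045_at the values were 498 and 928 against 522 and 446, and for 1429046_at 177 and 500 against 383 and 129. Both overlapped, and the Smad4-KO replicates of 1429046_at differed by 1.57 on the log2 scale.

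**Figure D4:**
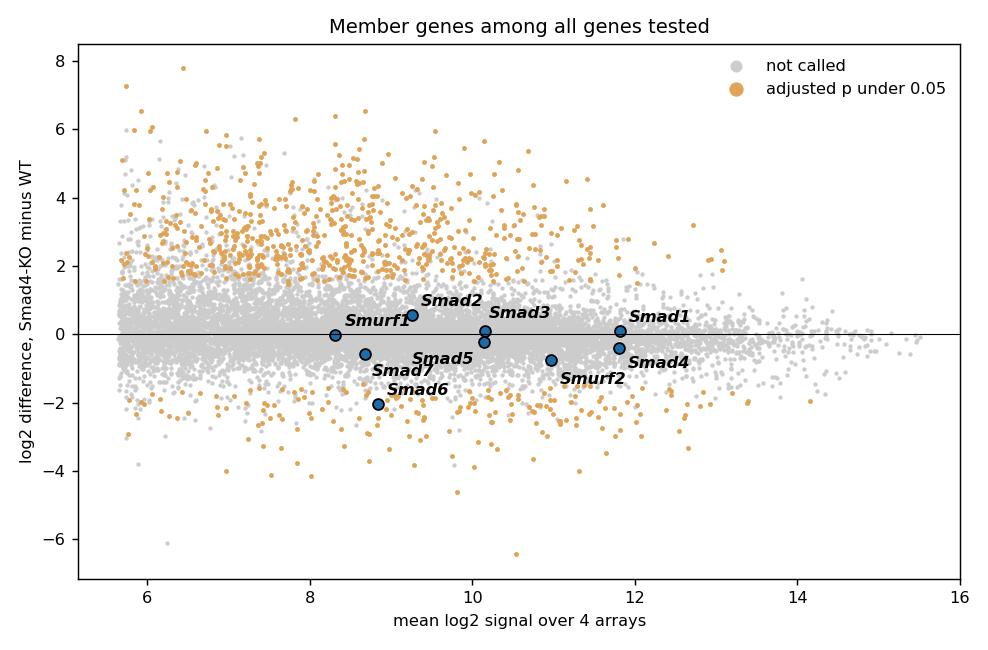
Log2 difference between Smad4-KO and WT (y axis) against the mean log2 signal over the 4 arrays (x axis) for the 13645 genes tested, with called genes in orange and the 9 tested member genes in blue. Smad6 lies among the called genes below 0, at -2.03, and the other 8 lie between -0.76 and 0.58 within the grey cloud.

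The genes whose pattern over the 4 arrays was most like that of Smad6, by the distance between log2 values centred on each gene's mean, were Nav2 (distance 0.11), Rhpn2 (0.12), Hr (0.19) and Fam160a1 (0.23). Nav2 read 1639 and 1140 in WT, against 388 and 278 in Smad4-KO, and Hr read 686 and 509 against 166 and 135. Like Smad6, each was higher on WT replicate 1 than on WT replicate 2 and lowest on Smad4-KO replicate 2. The genes most like Smad4 were Zfp764 (distance 0.04), Cisd2 (0.05), Sp7 (0.05) and Arid1b (0.06). With 4 arrays many genes can share a pattern, and the likeness is a description.

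Other genes that act on Smads were read from lists written down for the pathway. Of 18 nuclear partners tested, 2 rose and 0 fell, with a median log2 difference of -0.19 beside -0.01 over all genes tested. Of all 13645 genes tested, 6.31% were called, 672 genes higher and 189 lower. The 2 were Runx1 (3.70 ± 0.70, adjusted p = 0.0441, limma) and Runx3 (2.79 ± 0.55, adjusted p = 0.0491), transcription factors of blood cells that bind Smads. Runx1 read 35.9 and 37.2 in WT, against 228 and 986 in Smad4-KO, and Runx3 read 43.6 and 38.6 against 166 and 485. The WT values of both genes lay under the filter for genes, at 5.64 on the log2 scale, so both genes were tested only because of their Smad4-KO arrays, and their count supports nothing about the list. When probe sets were averaged, the difference of Runx3 was 0.97 (adjusted p = 0.579, limma). Of 9 genes called among 13 macrophage markers in the same arrays, all rose, and the part of such cells in the Runx values was not tested.

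Of 19 anchors, phosphatases and transport factors of Smads, 0 passed in limma (median -0.25), and the lowest unadjusted p was that of Dab2, an adaptor that links receptors to Smads (1.13 ± 0.31, adjusted p = 0.115). Of 17 other ubiquitin ligases and deubiquitinases, 1 fell and 0 rose (median -0.13), a share near the 6.31% of all genes called in either direction. Of all genes tested, 1.39% were called lower, and 1 gene is too few to set against that share. The one called was Wwp2, a relative of the Smurfs that also targets Smads, which gave 2304 and 3401 in WT, against 738 and 888 in Smad4-KO. The genotypes were well apart, and Wwp2 fell 3.46-fold (-1.79 ± 0.34, adjusted p = 0.0462, limma). Of 14 receptors, 1 fell and 0 rose (median -0.20), again near the 6.31% called in either direction and again only 1 gene beside the 1.39% called lower. The one called was Bmpr1b, a BMP receptor that phosphorylates Smad1, Smad5 and Smad9, with 783 and 1751 in WT, against 126 and 186 in Smad4-KO (-2.93 ± 0.48, adjusted p = 0.0316, limma). With its probe sets averaged, the difference was -1.77 and did not pass (adjusted p = 0.0731, limma).

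Genes listed as targets of the Smads, or as adjusting BMP signalling, moved both ways. Of 11 genes known to respond to BMP-activated Smads or to adjust BMP signalling, 2 fell and 2 rose (median -0.55), and 7 had a negative difference. Beside this count and that of the TGF-beta list below, 6.31% of all genes tested were called, and 1.39% were called lower. Id4, a partner-binding inhibitor of transcription factors, gave 2147 and 2292 in WT, against 618 and 621 in Smad4-KO (-1.84 ± 0.29, adjusted p = 0.0282, limma). Its relatives Id1 (-1.57, adjusted p = 0.0533, limma), Id3 (-0.98) and Id2 (-0.85) were lower on both Smad4-KO arrays without passing. Atoh8, a transcription factor induced by BMPs, fell as well (-2.12 ± 0.33, adjusted p = 0.0276), while Bmper (2.46 ± 0.35, adjusted p = 0.0224) and Tbx20, a cardiac transcription factor (2.16 ± 0.29, adjusted p = 0.0205), rose. Of 15 genes known to respond to TGF-beta, 2 fell and 1 rose (median -0.02): Fstl3 (-2.49 ± 0.32), Tgfb1i1 (-1.48 ± 0.29) and Timp1, an inhibitor of metalloproteinases (3.17 ± 0.63). These lists were chosen with earlier results of the series known. All 11 genes called in these lists kept their direction in the alternatives run. Their calls ended with no filter on low signal, without WT replicate 2 and when arrays were blocked by their labelling ratios, where 0 of all genes were called in limma. The call of Tgfb1i1 was the least steady of the 11, lost in 11 of 16 alternatives, followed by Wwp2 (9 of 16), Runx3 (8 of 15), Id4 (7 of 16) and Runx1 (6 of 15), and the other 6 lost theirs in 4 or 5. Runx1 and Runx3 lost theirs also with signals under 64 raised to 64 (adjusted p = 0.085 and 0.0948).

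Marker transcripts of several cell types differed between the genotypes, and these values stand beside the fall of Smad6. Smooth muscle markers fell: 7 of 12 were called lower and 0 higher, with a median log2 difference of -2.08, and their summed signal was 159562 and 185990 in WT, against 67796 and 76069 in Smad4-KO. Over all genes tested, 1.39% were called lower. Synpo2 (-2.96) and Cnn1 (-2.58) had the largest differences. Endothelial markers were of interest because endothelium is known to make much Smad6. Of 16, 0 were called in limma, 2 had an unadjusted p under 0.05 (Kdr, 1.40, and Robo4, 1.14, both higher), 6 had a negative difference and the median was 0.30. Their summed signal was 21282 and 17022 in WT, against 23448 and 13970 in Smad4-KO, and the genotypes overlapped. Defining endothelial genes were detected and went both ways, and 0 of them passed. Cdh5 gave 853 and 529 in WT, against 1688 and 629 in Smad4-KO (its difference of 0.62 was -0.23 with probe sets averaged), and Pecam1 gave 2296 and 3699 against 2890 and 628, so that both overlapped. Nos3 (1254 and 948 against 744 and 524; -0.80) and Vwf (3846 and 2488 against 2022 and 1742; -0.72) were lower on both Smad4-KO arrays.

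Macrophage markers rose: 9 of 13 were called higher and 0 lower, with a median of 2.97 and summed signals of 17741 and 12178 in WT, against 72466 and 104877 in Smad4-KO. Over all 13645 genes tested, 672 were called higher. Aif1 (4.34) and Fcgr1 (3.79) had the largest differences. All 12 nerve cell markers were called higher, with a median of 4.75 and summed signals of 2350 and 1949 in WT, against 47401 and 36536 in Smad4-KO, among them Snap25 (5.95) and Rtn1 (6.38). The value of Rtn1 rests on WT replicates of 119 and 10.2, and was 5.06 with signals under 64 raised to 64 and 4.61 without WT replicate 2. The mean log2 signal of its WT arrays lay under the filter for genes. Rtn1 was therefore tested only because of its Smad4-KO arrays, and its place in the count of 12 supports nothing about the list. Of 4 Schwann cell markers tested, 2 rose (median 1.68; Cdh19, 3.42, and Mbp, 1.99), with Pmp2 below the filter. The probe sets of Sox10, the transcription factor of that lineage, disagreed. Its brightest was lower on both Smad4-KO arrays (120 and 150 in WT, against 61.3 and 104; -0.74) and did not pass, while another, 1451689_a_at, was higher on both (17.5 and 28.9 against 229 and 182). With signals under 64 raised to 64 the latter stood for the gene, which was then called higher (1.67, adjusted p = 0.0347, limma). Of 9 fibroblast markers 0 were called in limma (median 0.06), of 6 fat cell markers on the array 0 (median 0.03) and of 7 skeletal muscle markers 0 (median 1.61, with Myh4 and Actn3 below the filter), while Smad4-KO replicate 2 had a summed skeletal muscle signal of 13958 against 677 to 1105 on the others. The largest differences were those of Pi16 (-0.87) and Cd34 (-0.71) for fibroblasts, and Myh2 (3.60) and Acta1 (3.22) for skeletal muscle. For fat cells they were those of Lep (-1.79) and Ucp1 (-3.84), and Ucp1 gave 9417 and 1170 in WT, against 773 and 69.9 in Smad4-KO. The part of these cells in the values of the Smad and Smurf genes was not tested.

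**Figure D5:**
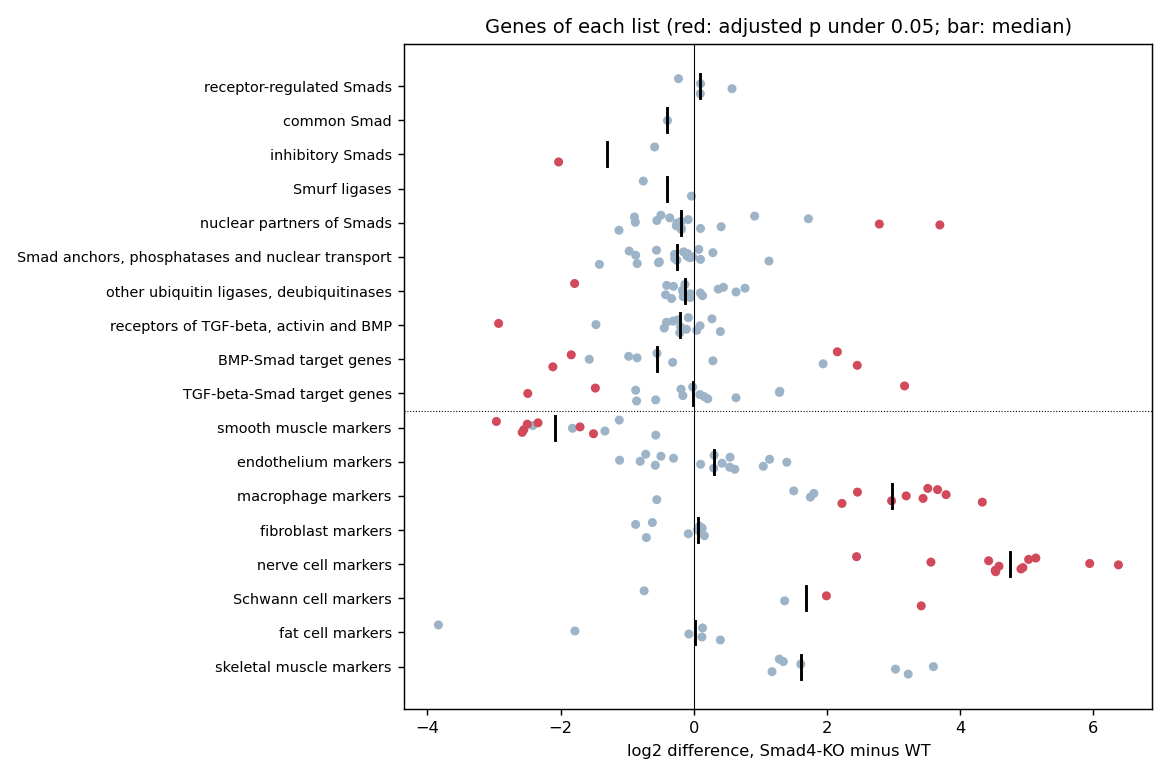
Log2 difference between Smad4-KO and WT (x axis) of each tested gene in the lists of Smads, Smurfs and genes that act with them (above the dotted line) and of cell type markers (below it). Red points passed an adjusted p of 0.05 in limma, and black bars are medians. The inhibitory Smads have their median at -1.31, from Smad6 and Smad7, and the receptor-regulated Smads at 0.10, while smooth muscle markers lie at -2.08 and nerve cell markers at 4.75.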

How the data were processed

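The deposited table holds probe set intensity on a linear scale for 4 arrays. Expression Console (Affymetrix) and RMA are named in the submitters' processing notes. The values are not on a log scale, and their mean after trimming 2% at each end is 500 on every array, which is not the form RMA gives. A genome build is not given in the sources used here. Array medians were 111 to 137, and the number of arrays limits the precision.

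Values were taken to log2 here. Probe sets with exactly 1 symbol numbered 34945. Each gene was read from its probe set of highest mean, and genes below the 25th percentile (log2 5.64) were left out. Probe sets were also fitted singly (filter at log2 5.25). limma 3.58.1 in R 4.3.3 fitted genotype alone (two-sided, Benjamini-Hochberg over all features). Replicates are separate pools of animals. The procedure was tested on simulated data. Promoters are from RefSeq (GRCm38.p6), matched by symbol. Figures used Python 3.11.15 and matplotlib 3.10.9.

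The text names all 10 genes, the called members of each list (up to 4, or the one of lowest p), the 4 genes most like Smad6 and Smad4, and up to 2 markers per list. Cdh5, Pecam1, Nos3, Vwf, Sox10, Id1, Id2 and Id3 were named outside this rule, after their values were seen. Members and lists were chosen with earlier results of these data known. Alternatives were 3 scalings, a replicate block, 2 filters, a floor of 64, the mean of probe sets, trend and robust variance, array weights, a threshold of 0.10, leaving out each array, and a block for arrays that match on labelling controls, added after seeing the data.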

Additional observations from a re-analysis of the deposited data

How the results depend on the processing

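Over 16 alternatives Smad4 stayed negative (-0.61 to -0.19) and passed in none. Smad6 stayed negative and lost its call in 6, so that the count of member genes called went from 1 to 0 with no filter on low signal, when a gene's probe sets were averaged (adjusted p of Smad6 0.0532) and with the block for arrays matching on labelling controls (adjusted p of Smad6 0.0931), and lay between 0 and 1 when arrays were left out. The count of member probe sets called was 0, and 1 at an adjusted p of 0.10, and 0 whichever array was left out. The count of all genes called was 861. It was 1321 with the replicate block, 0 with no filter (2788 at an unadjusted p under 0.05), 518 with the mean of probe sets, 1403 at an adjusted p of 0.10 and 0 with the block for labelling controls (2658 at an unadjusted p under 0.05). Leaving out an array gave 0 (without WT replicate 2, 1791 at an unadjusted p under 0.05) to 808 genes. Small differences turned sign and were called in no setting: Smad1 and Smad3 with median centring (-0.056 and -0.052), and Smurf1 (0.26) and Cdh5 (-0.23) with averaged probe sets. With arrays left out, Smad1 lay between -0.052 and 0.25, Smad3 between -0.15 and 0.35, Smurf1 between -0.45 and 0.39 and Cdh5 between -0.094 and 1.33. Sox10 turned from -0.74 to 0.58 with averaged probe sets, without passing, and to 1.67 with signals under 64 raised to 64 (adjusted p = 0.0347, limma), where another of its probe sets is read. The deviations of same-numbered arrays correlated at -0.03 over probe sets, so replicate numbers were not taken to pair the samples, although Xist and the summed fat cell markers (72678 and 67439 in replicates 1, 30922 and 32328 in replicates 2) split by number. The replicate block moved no member across the threshold. A genotype with an array left out has 1, assumed to vary like the other. Smad9 and dim probe sets of Smad3 and Smurf1 are limited by signal near background. The cause of the changes was not tested.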
